A study of Mus musculus with 12 samples.

Results

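Messenger RNA of Ciita and of 7 genes of the MHC class II pathway was followed across mouse head and neck squamous cell carcinoma tumours under 4 treatments. The 8 genes, Ciita, H2-Aa, H2-Ab1, H2-Eb1, H2-DMa, H2-DMb1, H2-DMb2 and Cd74, were taken by symbol after matching the Ensembl identifiers of the count table to an annotation, and were 8 of its 54446 rows. All 8 had enough counts to be tested. Tumours were raised by injecting cells of the mouse line Sq-1979, together with Matrigel, subcutaneously into the back of C3H/HeN males aged 6 weeks. Of the 12 tumours, 3 came from mice given vehicle, 3 from mice given a rat anti-PD1 antibody, directed at an inhibitory receptor of T cells, 3 from mice given SN-38, the active metabolite of the topoisomerase I inhibitor irinotecan, and 3 from mice given the antibody and SN-38 together, called the combination here. Doses, schedules and times of collection are not given in the sources used here, and every group is a transplant of 1 cell line, in which host cells are mixed with carcinoma cells. Within a group the tumours are numbered 1 to 3, but no label says whether different numbers are different mice, so a p-value measures only the spread between these samples, which may be partly technical.

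MHC class II molecules are pairs of an alpha and a beta chain that show peptides from the endosomal route to CD4+ T cells. They are made all the time by dendritic cells, B cells and many macrophages, and other cells, including some carcinoma cells, make them after exposure to interferon-gamma. CIITA is a coactivator with no DNA binding of its own: it joins the RFX, CREB and NF-Y factors that sit on the X and Y boxes of class II promoters, and its level sets how strongly the family is transcribed. H2-Aa and H2-Ab1 encode the chains of the A molecule and H2-Eb1 the beta chain of the E molecule, Cd74 encodes the invariant chain that escorts new class II molecules to endosomes, and H2-DMa, H2-DMb1 and H2-DMb2 encode chains of the DM molecule, which exchanges the remnant of the invariant chain for peptide.

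Total counts ran from 21088288 to 28512141 per tumour, and the 8 genes together took 0.386% to 1.11% of them, from 511 counts of H2-DMb2 in its lowest tumour to 132069 counts of Cd74 in its highest. Levels are given as CPM, read counts scaled to library size, with TMM factors applied. Keratins that define squamous epithelium were abundant in all 12 tumours, Krt5 at 4411 to 8113 CPM and Krt14 at 1635 to 5589 CPM, whereas the B cell gene Ms4a1 was at or below 0.144 CPM in every tumour. The mean log2 CPM of 10 squamous genes was 8.69 in combination tumour 2, the lowest for Krt5 and Krt14 as well, and 9.20 to 9.77 in the rest. Because these are bulk tumours, fewer cells of a type and less RNA per cell cannot be told apart. Anti-PD1 tumour 3 and combination tumour 3 stood apart from the other 10 in leukocyte content: the mean log2 CPM of 4 general leukocyte genes was 7.30 and 7.40 in them and 5.69 to 6.27 in the rest. For the 8 genes, most results that rest on them are therefore given with and without them.

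On build GRCm38, Ciita lies at chr16:10480059-10528418 on the plus strand, where its exons overlap those of Dexi on the minus strand. The class II genes form a cluster on chromosome 17, with H2-DMa at chr17:34119541-34139101 (plus strand, exons overlapping Brd2 on the minus strand), H2-DMb2 at chr17:34143307-34151555, H2-DMb1 at chr17:34153072-34160230, H2-Ab1 at chr17:34257689-34269419, H2-Aa at chr17:34282744-34287823 on the minus strand and H2-Eb1 at chr17:34305867-34316674. The library kit marks strand, but the strand setting of the counting is not given in the sources used here. Dexi stood at 14.4 to 23.9 CPM and was lowest in combination tumour 3, where Ciita was highest. Brd2 stood at 282 to 362 CPM, and as the setting is unknown, the counts of Ciita and H2-DMa may hold reads of their partners.

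As CIITA acts through the X and Y boxes of class II promoters, stretches that hold letters of these boxes are given here. They were taken from RefSeq's promoter windows on GRCm38.p6, which run from 250 bases before to 50 bases after a gene start. The windows read here were those of H2-Aa, H2-Eb1, H2-DMa, H2-DMb1 and H2-DMb2. Capitals mark ACNGATG, letters of the X box, and ATTGG, the Y box core read on the gene's strand (CCAAT on the other), and each line reads 5′ to 3′ on the gene's own strand.
H2-DMb2: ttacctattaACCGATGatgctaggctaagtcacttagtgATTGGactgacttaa
H2-DMb1: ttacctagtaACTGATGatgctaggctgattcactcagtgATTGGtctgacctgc
H2-Eb1: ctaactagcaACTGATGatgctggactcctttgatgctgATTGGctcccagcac
H2-Aa: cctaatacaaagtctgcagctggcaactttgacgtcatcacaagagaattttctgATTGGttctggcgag
These lie at chr17:34145119-34145173, chr17:34153090-34153144 and chr17:34305769-34305822 on the plus strand and, for H2-Aa, at chr17:34287857-34287926 on the minus strand. Between the X letters and the Y core there were 23 bases in H2-DMb1 and in H2-DMb2 and 22 bases in H2-Eb1. The Y core began 90, 61, 59 and 48 bases before the RefSeq start of H2-DMb2, H2-DMb1, H2-Eb1 and H2-Aa.

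Searched on both strands, ACNGATG followed on the same strand by ATTGG after 10 to 30 bases was found in 52 of 32544 RefSeq promoter windows, or 0.16%. Those 52 included H2-DMb1, H2-DMb2, H2-Eb1 and their non-member neighbour H2-Eb2, a further class II beta gene. By themselves, CCAAT was in 37.4% of windows and ACNGATG in 9.87%. The H2-Aa window held the Y core and, over both strands, 1 match of ACNGATG, but not the pair. Neither of the 2 windows of H2-DMa held the pair. No window of Cd74 was described, so whether its promoter holds the pair is not stated. A match is a description of letters and not of a bound site, and no match says only that this window lacks the letters in the searched arrangement.

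Ciita, the coactivator, had its highest levels in tumours that had received the antibody. It stood at 121, 99.3 and 61.5 CPM in vehicle tumours 1 to 3, at 212, 85.7 and 214 CPM with anti-PD1, at 107, 90.0 and 84.5 CPM with SN-38, and at 132, 156 and 274 CPM with the combination. In 5 of the 6 tumours given the antibody, alone or in the combination, Ciita was above all 6 tumours without it, and anti-PD1 tumour 2 lay among those 6. The share of all tested genes that reach this count was not determined, so whether it is unusual is not known. Group means were 93.9 ± 30.1 CPM for vehicle, 93.9 ± 11.9 for SN-38, 171 ± 73.6 for anti-PD1 and 187 ± 76.3 for the combination (SD, n = 3 each). In that order, neighbouring groups overlapped. All 3 combination tumours lay above all 3 vehicle tumours and above all 3 SN-38 tumours. That separation was not rare: 11.7% of tested genes were higher without overlap in the combination than in vehicle, 5.08% in the combination than with SN-38, and 7.99% with anti-PD1 than in vehicle, where Ciita overlapped.

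**Figure D1:**
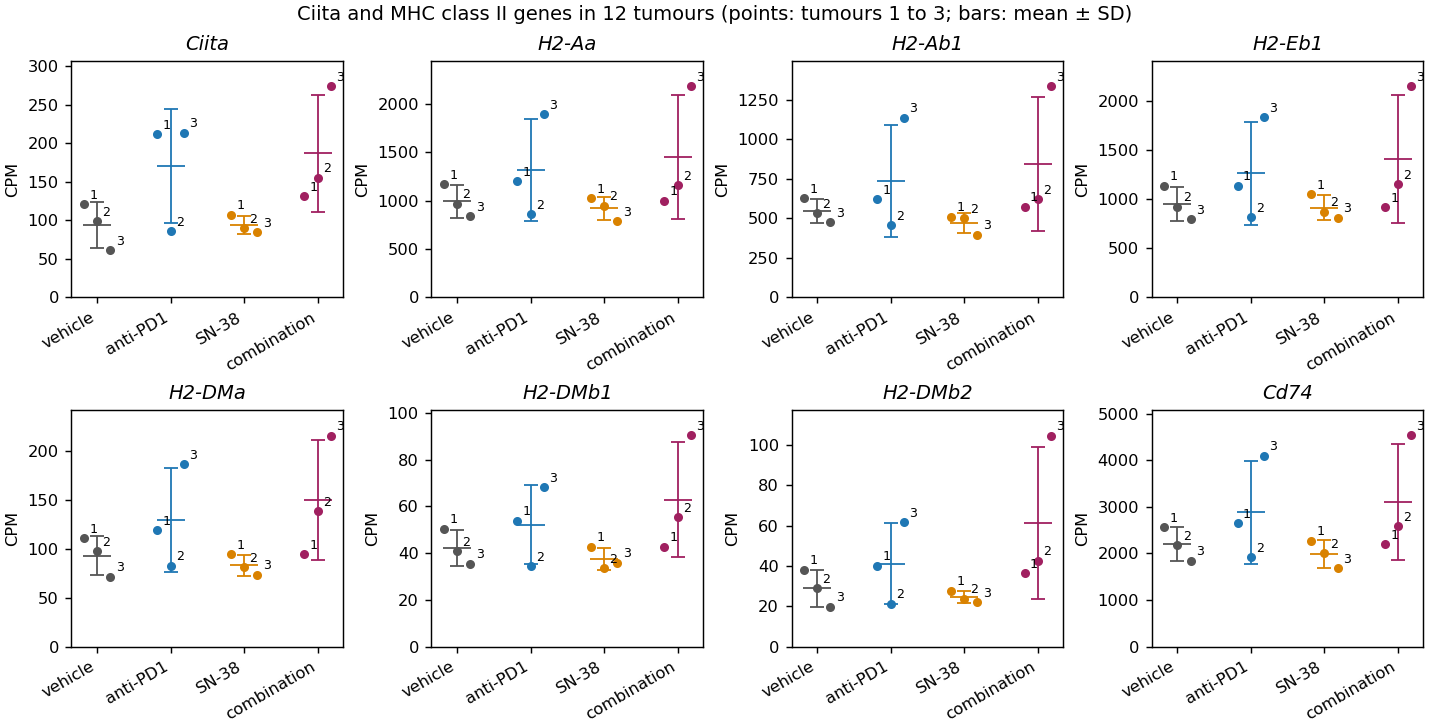
Levels of the 8 genes in CPM (linear axes from 0) in 3 tumours of each of the 4 groups, where points are tumours numbered as in the labels and bars are the group mean ± SD. Anti-PD1 tumour 3 and combination tumour 3 are the highest 2 tumours for every gene, while for Ciita anti-PD1 tumour 1, at 212 CPM, is nearly level with anti-PD1 tumour 3.

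The chains of the A and E molecules came next to the invariant chain in abundance, and their spread lay mainly in those same 2 tumours. H2-Aa, the A alpha chain, stood at 1166, 968 and 838 CPM in vehicle tumours, 1197, 859 and 1892 CPM with anti-PD1, 1023, 947 and 788 CPM with SN-38, and 1000.2, 1158 and 2179 CPM with the combination. H2-Ab1, the A beta chain, stood at 627, 534 and 475 CPM, then 619.6, 456 and 1136 CPM, then 511, 502 and 396 CPM, and then 574, 620.5 and 1334.5 CPM, with the groups in the same order. H2-Eb1, the E beta chain, stood at 1138, 927 and 795 CPM, then 1139.6, 817 and 1840.0 CPM, then 1056, 874 and 813 CPM, and then 920.3, 1154 and 2152 CPM. For each of these chains the groups overlapped in every comparison with vehicle. Above all 6 tumours without antibody were 3 of the 6 antibody-treated tumours for H2-Aa, 2 for H2-Ab1 and 4 for H2-Eb1, against 5 for Ciita. For these counts too the share over all tested genes was not determined.

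Cd74, the invariant chain, followed the same course at a higher level. It stood at 2566, 2171 and 1839.8 CPM in vehicle tumours, 2643, 1917 and 4093 CPM with anti-PD1, 2269, 2007 and 1686 CPM with SN-38, and 2199, 2584 and 4531 CPM with the combination. Combination tumour 1 was below vehicle tumour 1 and SN-38 tumour 1, so the groups overlapped.

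The DM genes, which act after the invariant chain, were much lower. H2-DMa, the DM alpha chain, stood at 111, 97.1 and 71.1 CPM in vehicle tumours, 119, 82.4 and 187 CPM with anti-PD1, 94.4, 80.8 and 73.4 CPM with SN-38, and 94.4, 138 and 216 CPM with the combination. H2-DMb1, a DM beta chain, stood at 50.5, 40.8 and 35.4 CPM, then 53.9, 34.4 and 68.3 CPM, then 42.7, 33.6 and 35.8 CPM, and then 42.8, 55.3 and 90.3 CPM. H2-DMb2, its neighbouring copy, stood at 38.1, 28.9 and 19.7 CPM, then 40.2, 21.3 and 61.7 CPM, then 27.8, 23.7 and 21.9 CPM, and then 36.3, 42.6 and 105 CPM. H2-DMb2 had the widest range of the 8 genes, 5.31-fold from lowest to highest tumour, followed by Ciita at 4.46-fold, and the other 6 ranged from 2.69-fold to 3.37-fold. All 3 DM genes, as well as Ciita and H2-Ab1, were higher without overlap in the combination than with SN-38, where 5.08% of tested genes were. For H2-DMa and H2-DMb1 the gap was narrow, 94.42 against 94.35 CPM and 42.78 against 42.68 CPM between the nearest tumours. The longest transcripts of H2-DMb1 and H2-DMb2 were 94.6% identical over 1219 aligned bases with an unbroken identical run of 221 bases, so the division of reads between them is uncertain.

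Scaled by exonic length, mean levels in vehicle tumours were 1306 CPM per kb for Cd74, 490 for H2-Eb1, 261 for H2-Aa, 212 for H2-Ab1, 27.0 for H2-DMa, 25.1 for H2-DMb1, 16.6 for H2-DMb2 and 9.85 for Ciita. The regulator was thus the lowest of the set per unit of length in vehicle tumours, and the invariant chain the highest. C3H mice carry the k haplotype of the MHC, and the reference genome is of the b haplotype. Loss of reads at sites where the haplotypes differ was not tested.

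The comparison of anti-PD1 with vehicle asks what the antibody alone did. All 8 genes had a higher fitted mean with anti-PD1, and none passed an adjusted p of 0.05 in edgeR's quasi-likelihood test. The log2 fold change of Ciita was 0.86 ± 0.38 (SE, adjusted p = 0.844). The other 7 genes lay between 0.31 for H2-DMb1 and 0.51 for H2-DMb2, with adjusted p-values from 0.847 to 0.885, and the median over the 8 was 0.42 where that over all tested genes was 0.01. In this comparison 0.0% of all 16833 genes tested passed in edgeR, 943 had an unadjusted p under 0.05, and DESeq2 passed 28, none of them among the 8. Without anti-PD1 tumour 3 the median of the 8 genes was 0.06, that of Ciita remaining at 0.67 and that of H2-Ab1 at -0.02.

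SN-38 alone was compared with vehicle next. Ciita had the same fitted mean in both groups, a log2 difference of 0.00 ± 0.38, and the other 7 genes were lower with SN-38 by fitted differences of -0.06 for H2-Eb1 to -0.24 for H2-DMb2. None passed, with adjusted p-values of 0.899 and above, and no unadjusted p was under 0.05. Of all genes 0.00594% passed, which was 1 gene and none of the 8, and DESeq2 passed 150 with none of the 8. The SE of these differences ran from 0.29 to 0.45, and in the same fit even 1.32 ± 0.45, for H2-DMb2 in the combination against SN-38, did not pass with 3 tumours per group.

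The combination was compared with vehicle and with each agent alone, comparisons that share their tumours. Against vehicle all 8 genes had a higher mean, with a median log2 difference of 0.60 beside 0.01 over all genes. The largest were H2-DMb2 at 1.08 ± 0.45 (adjusted p = 0.375) and Ciita at 0.995 ± 0.381 (adjusted p = 0.354), and the smallest was Cd74 at 0.50 ± 0.31 (adjusted p = 0.492). None passed, and 0.0% of all genes did in edgeR, with 2164 at an unadjusted p under 0.05 and 173 passing in DESeq2. Without combination tumour 3 the median of the 8 was 0.17, with Ciita highest at 0.61.

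Against SN-38 alone the combination was higher in all 8 genes, with a median log2 difference of 0.80, from 0.62 for H2-Eb1 to 1.32 ± 0.45 for H2-DMb2. Of the 8, 5 had an unadjusted p under 0.05 where 7.92% of all genes did, but none passed after adjustment (adjusted p from 0.618 to 0.668), as 0.0% of all genes did in edgeR and 51 in DESeq2. Without anti-PD1 tumour 3 and combination tumour 3, 0 of the 8 had an unadjusted p under 0.05, beside 1061 of the 16940 genes tested in that fit. Against anti-PD1 alone the 8 genes were also higher, by a median of 0.17, with H2-DMb2 the largest at 0.58 ± 0.45 (adjusted p = 0.783). None of the 8 had an unadjusted p under 0.05 there, where 7.96% of all genes did. Again 0.0% of all genes passed in edgeR and 77 in DESeq2. Leaving out combination tumour 3 put all 8 genes below anti-PD1 alone, with a median of -0.26, and lowered the median against SN-38 to 0.37. Leaving out anti-PD1 tumour 3 in its place gave a median of 0.505 against anti-PD1 alone, and leaving out both gave 0.12 with 7 of the 8 higher.

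The effect of the antibody averaged over both SN-38 states uses all 12 tumours. All 8 were higher with the antibody, by a median log2 difference of 0.59 beside -0.003 over all genes. Ciita was the largest at 0.93 ± 0.27 (adjusted p = 0.732), followed by H2-DMb2 at 0.91 ± 0.32 and H2-DMa at 0.66 ± 0.23, and the smallest was H2-Eb1 at 0.52 ± 0.24. An unadjusted p under 0.05 was reached by 7 of the 8, all but H2-Eb1, and by 6.67% of all genes. Without anti-PD1 tumour 3 and combination tumour 3 only Ciita, 1 of the 8, reached it, beside 798 of the 16940 genes tested in that fit. After adjustment over all genes none of the 8 passed and 0.0% of all genes did in edgeR, where 1123 had an unadjusted p under 0.05, and DESeq2 passed 5 genes and none of the 8, its lowest adjusted p among them being 0.108. Without those 2 tumours the median was 0.20, and Ciita at 0.64 was again the largest. Squamous epithelium genes were lower with the antibody in this average, 10 of 10 by a median of -0.17, none at an unadjusted p under 0.05. With anti-PD1 alone against vehicle 7 were lower and 3 higher. The average includes combination tumour 2, which had the lowest squamous score at 8.69, and no value without it is given. The part of these genes in the result was not tested.

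**Figure D2:**
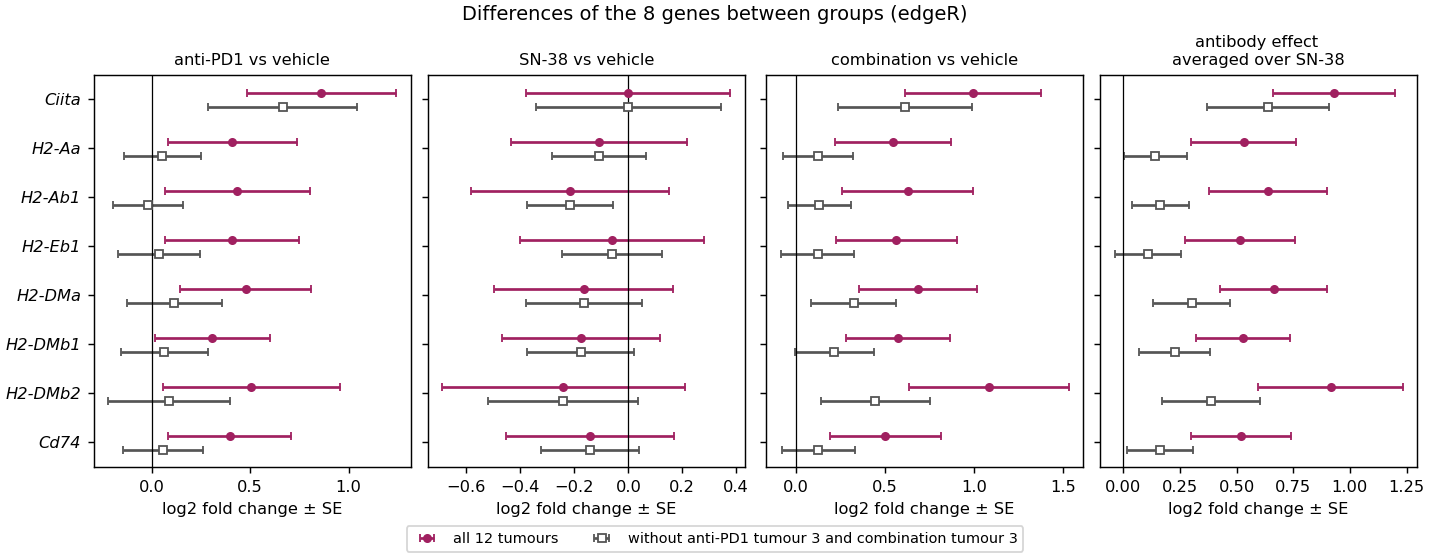
Log2 fold changes ± SE from edgeR for the 8 genes in 4 comparisons, with all 12 tumours (filled circles) and without anti-PD1 tumour 3 and combination tumour 3 (open squares). Without those tumours the differences of the antibody effect lie between 0.11 and 0.64, against 0.52 to 0.93 with all tumours, and Ciita keeps the largest.

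Averaged over the antibody states, SN-38 gave a median log2 difference of 0.03 over the 8 genes, from -0.02 for Cd74 to 0.17 for H2-DMb2, each with an adjusted p of 0.894 or above. The interaction, defined as how much larger the antibody effect was in mice given SN-38 than in mice not given it, had a median of 0.31 and was largest for H2-DMb2 at 0.82 ± 0.63 (adjusted p = 0.792) and smallest for Ciita at 0.13 ± 0.53. Its median was -0.11 without combination tumour 3, 0.63 without anti-PD1 tumour 3 and 0.27 without both. No gene of the 8 had an unadjusted p under 0.05 in either, and 0.0% of all genes passed in both in edgeR, with 1764 genes at an unadjusted p under 0.05 for SN-38 and 1284 for the interaction, and 190 and 16 passing in DESeq2. In the test for any difference among the 4 groups, Ciita had an adjusted p of 0.527 and was the 1 gene of the 8 with an unadjusted p under 0.05. Of all genes 0.0% passed in edgeR with 1520 at an unadjusted p under 0.05, and DESeq2 passed 296. Without anti-PD1 tumour 3 and combination tumour 3, 0 of the 8 had an unadjusted p under 0.05, beside 1597 of 16940 genes.

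Across the 12 tumours, the class II genes varied with Ciita, and more closely still with each other. Pearson's r of log2 CPM with Ciita was 0.863 for H2-Ab1, 0.891 for H2-Eb1, 0.898 for H2-Aa, 0.904 for Cd74, 0.929 for H2-DMa and for H2-DMb1, and 0.938 for H2-DMb2. Spearman's rho ran from 0.923 to 0.972, and every permutation p adjusted over the 7 relations was 5e-05 or below (100000 resamples, smallest possible p 1e-05). Without anti-PD1 tumour 3 and combination tumour 3, which were the 2 farthest from the median of Ciita, r ran from 0.783 for H2-Ab1 to 0.913 for H2-DMb2, with adjusted permutation p-values of 0.00731 or below over 10 tumours. With the group means taken out, so that only the spread among tumours of like treatment counts, r ran from 0.822 to 0.943, and the highest adjusted p in an exact permutation test within groups was 0.00386.

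Among the 7 genes other than Ciita, the 21 pairs had r from 0.944 to 0.998, and from 0.857 to 0.994 without those 2 tumours. Ratios of CPM within a tumour show how closely some kept step. Cd74 stood at 208 to 224 per 100 H2-Aa, and H2-Eb1 at 92.0 to 103 per 100 H2-Aa. The ratio of H2-DMb2 to H2-DMb1 was less fixed, 55.7 to 116 per 100 with its maximum in combination tumour 3.

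Ciita per 100 Cd74 ranged more widely, from 3.34 in vehicle tumour 3 to 8.03 in anti-PD1 tumour 1, with a median of 4.87. In the combination it was 5.99, 6.02 and 6.05, and in anti-PD1 tumours 2 and 3 it was 4.47 and 5.23. The 6 tumours without antibody lay between 3.34 and 5.01. Anti-PD1 tumour 1 thus had a level of Ciita like that of anti-PD1 tumour 3, 212 against 214 CPM, with 2643 against 4093 CPM of Cd74.

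**Figure D3:**
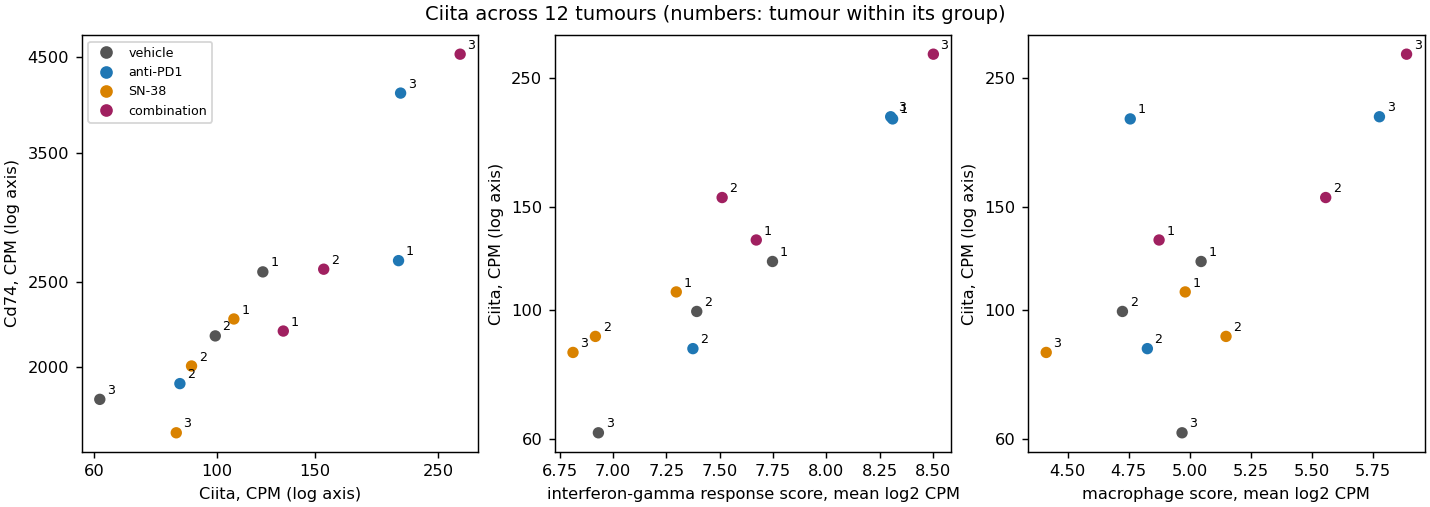
Each of 12 tumours by Ciita in CPM (log axes) against Cd74 in CPM (left), the interferon-gamma response score (middle) and the macrophage score (right), scores being the mean log2 CPM of a marker list. Ciita follows the interferon-gamma response score (r = 0.935), while anti-PD1 tumour 1 combines 212 CPM of Ciita with a macrophage score of 4.76, within the range of the vehicle tumours.

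Marker lists of leukocyte types, of the response to interferon-gamma and of squamous epithelium were set beside these genes. Scores are the mean log2 CPM of a list in a tumour, and 56 relations of the 8 genes with 7 scores were tested together. By r over 12 tumours Ciita was most closely related to the interferon-gamma response score of 15 genes (r = 0.935, rho = 0.902, adjusted permutation p = 0.00014; r = 0.874 without anti-PD1 tumour 3 and combination tumour 3; 0.961 with group means removed). By rho, and by r without those 2 tumours, the T cell score of 10 genes was the closer one (r = 0.893, rho = 0.923, adjusted permutation p = 0.000153; r = 0.882 without those 2 tumours). With the NK cell score of 6 genes r was 0.859 (rho = 0.769, adjusted permutation p = 0.00072), and 0.737 without the 2 tumours (adjusted permutation p = 0.0561). With the macrophage score of 12 genes r was 0.656 (rho = 0.573, adjusted permutation p = 0.0293 for r and 0.0809 for rho) and 0.232 without the 2 tumours, and with the dendritic cell score of 10 genes it was 0.690 (rho = 0.490, adjusted permutation p = 0.018 for r and 0.133 for rho) and 0.104 without them. The relations of Ciita to macrophage and dendritic cell markers therefore rest on those 2 tumours, and those to T cell and interferon-gamma response genes do not.

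Cd74 was most closely related to the T cell and NK cell scores. Its r was 0.965 with the T cell score (rho = 0.958), 0.946 with the NK cell score (rho = 0.797; r = 0.749 without anti-PD1 tumour 3 and combination tumour 3), 0.892 with the interferon-gamma response score (rho = 0.895), 0.881 with the dendritic cell score (rho = 0.490) and 0.849 with the macrophage score (rho = 0.643), each with an adjusted permutation p of 0.00448 or below for r. For rho the adjusted permutation p was 0.133 with the dendritic cell score and 0.0522 with the macrophage score. By rho the interferon-gamma response score was closer to Cd74 than the NK cell score, and by r without the same 2 tumours it was the closest. Without the same 2 tumours r was 0.819 with the T cell, 0.835 with the interferon-gamma response, 0.284 with the dendritic cell and 0.521 with the macrophage score, of which the last 2 had adjusted permutation p-values of 0.546 and 0.212. With the B cell score of 4 genes 1 gene of the 8 passed by r, H2-Ab1 at 0.640 (adjusted permutation p = 0.0331), and none passed by rho. Without the same 2 tumours H2-Ab1 stood at r = 0.226 (adjusted permutation p = 0.618). Ciita stood at r = 0.288 over 12 tumours (adjusted permutation p = 0.363). No gene of the 8 passed with the squamous epithelium score by r, which lay between -0.506 and -0.350, while by rho 3 did, H2-Aa at -0.678, H2-Eb1 at -0.713 and Cd74 at -0.720 (adjusted permutation p of 0.0399, 0.0292 and 0.0282). With group means removed, r of these 3 was -0.266, -0.300 and -0.283 (adjusted permutation p of 0.711, 0.695 and 0.695). In all, 41 of the 56 relations had an adjusted permutation p under 0.05, 17 did without those 2 tumours, and 27 did with group means removed.

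**Figure D4:**
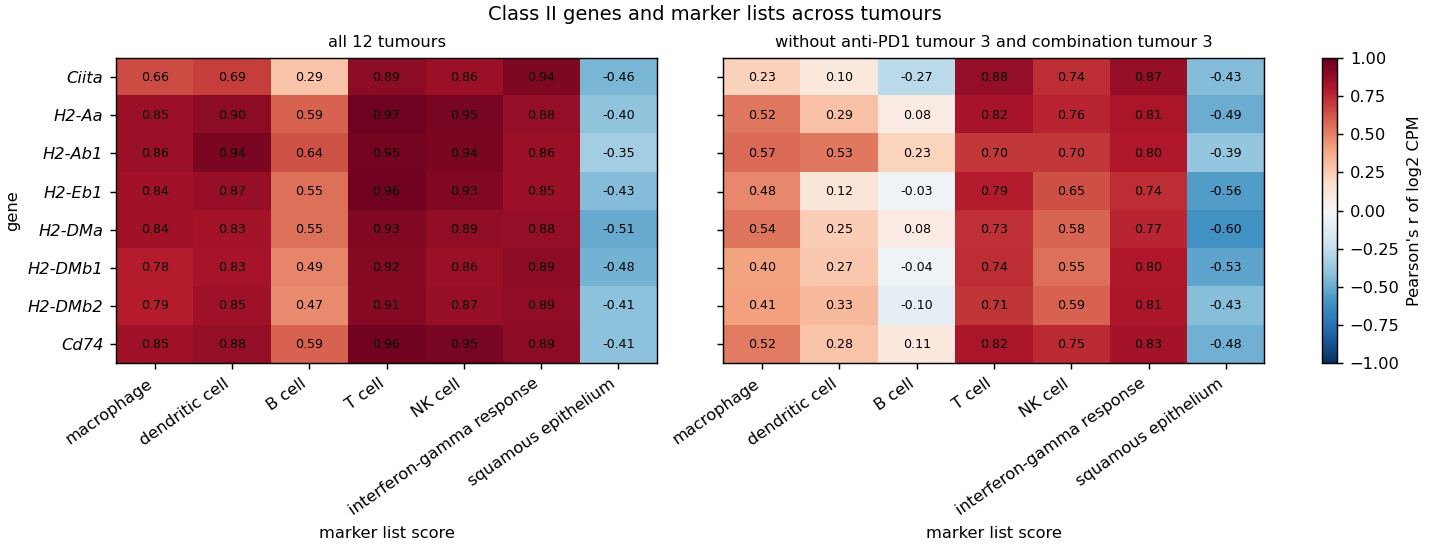
Pearson's r of log2 CPM between each of the 8 genes (rows) and 7 marker list scores (columns), over all 12 tumours (left) and over the 10 without anti-PD1 tumour 3 and combination tumour 3 (right). The T cell and interferon-gamma response columns stay at 0.70 or above on the right, and the macrophage and dendritic cell columns drop to between 0.10 and 0.57.

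The marker levels that moved with the class II genes were as follows. All 12 of the macrophage genes were tested, and their summed level was 605 to 766 CPM in vehicle tumours, 613 to 1214 with anti-PD1, 452 to 700.0 with SN-38 and 643 to 1336 with the combination. All 10 dendritic cell genes were tested and summed to 169 to 186, 143 to 308, 151 to 177 and 197 to 399 CPM in the same order. Xcr1, the receptor that marks cross-presenting dendritic cells, was 18.8 and 24.6 CPM in anti-PD1 tumour 3 and combination tumour 3 and 4.27 to 7.90 CPM elsewhere. Not every gene of that list did the same. Cd209a was highest in vehicle tumour 3, at 2.04 CPM, with 1.69 and 1.20 CPM in those 2 tumours. Against vehicle, 7 of the 10 genes were higher and 3 lower with anti-PD1, and 8 were higher and 2 lower with the combination. Of 9 B cell genes 4 were tested, with a sum of 2.73 to 10.2 CPM, and defining members were near 0: Ms4a1 did not exceed 0.144 CPM, Cd79a 0.288 CPM and Fcmr 0.0425 CPM.

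T cell genes, 10 of 10 tested, summed to 67.6 to 81.3 CPM in vehicle tumours, 75.8 to 179.5 with anti-PD1, 65.3 to 91.0 with SN-38 and 80.6 to 204 with the combination. NK cell genes, 6 of 7 tested, summed to 16.2 to 20.4, 18.1 to 46.4, 14.7 to 21.35 and 19.6 to 51.7 CPM in the same order. The 15 interferon-gamma response genes summed to 3021 to 4689.6, 4019.8 to 7829, 2999.8 to 4094 and 4255 to 7600.0 CPM. In anti-PD1 tumour 1 the interferon-gamma response score was 8.31, as high as the 8.30 of anti-PD1 tumour 3, while its leukocyte score was 6.27 against 7.30. Its T cell score of 3.39 and NK cell score of 1.71 were the highest after anti-PD1 tumour 3 and combination tumour 3. The next were 3.02 in SN-38 tumour 1 and 1.25 in SN-38 tumour 2. The part of these cells and of interferon-gamma in the class II levels was not tested.

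Other genes of the pathway were read from a list of 34 names, 33 of which were in the table and tested. For the antibody effect averaged over SN-38, 26 were higher and 7 lower, with a median log2 difference of 0.22, an unadjusted p under 0.05 for 10 of 33 beside 6.67% of all genes, and none past the adjusted threshold. Of all genes 49.1% were higher. Values without anti-PD1 tumour 3 and combination tumour 3 are not given for this list or for the antibody effects of its genes below. Against vehicle, 27 of 33 were higher with anti-PD1 (51.6% of all genes), 11 with SN-38 (51.2%) and 25 with the combination (51.6%), and none passed. Ifng, the cytokine that induces Ciita, was barely covered at 0.321 to 2.23 CPM (8 to 65 counts), with means of 0.548 ± 0.109 CPM in vehicle, 1.08 ± 0.589 with anti-PD1, 0.535 ± 0.186 with SN-38 and 1.38 ± 0.744 with the combination (SD, n = 3). Its antibody effect was 1.17 ± 0.35 on the log2 scale (adjusted p = 0.732). Irf1, a transcription factor that carries the interferon-gamma signal to the Ciita gene, stood at 206 to 510 CPM and had an antibody effect of 0.56 ± 0.17 (adjusted p = 0.732).

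The RFX subunits, which bind the X box beside CIITA, spanned narrow ranges. Rfx5 ranged from 65.8 to 88.8 CPM, with 67.7 ± 2.59 CPM in vehicle tumours, 82.9 ± 5.84 with anti-PD1, 77.3 ± 7.75 with SN-38 and 85.7 ± 2.92 with the combination (SD, n = 3). In anti-PD1 and combination tumours it lay above all vehicle tumours, as did 7.99% of tested genes with anti-PD1 and 11.7% with the combination. The log2 difference of Rfx5 between the combination and vehicle was 0.34 ± 0.08 (adjusted p = 0.296). Its antibody effect was 0.22 ± 0.06 (adjusted p = 0.732), with an unadjusted p under 0.05. Rfxap, at 14.9 to 19.6 CPM, and Rfxank, at 13.5 to 18.2 CPM, had antibody effects of -0.03 and 0.01.

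Further class II chains were H2-Ea-ps, H2-Oa, H2-Ob and H2-Eb2. H2-Ea-ps, the E alpha gene, which is functional in C3H mice and disrupted in the reference strain, stood at 280 to 853 CPM with an antibody effect of 0.64 ± 0.25 (adjusted p = 0.732), and H2-Eb1 was 214 to 284 per 100 of it. H2-Oa and H2-Ob, the DO chains that restrain DM, were at 2.65 to 9.50 and 7.91 to 18.3 CPM with antibody effects of 0.46 ± 0.27 and 0.32 ± 0.22. Both were highest in anti-PD1 tumour 3 and combination tumour 3. H2-Ob was 17.8 and 18.3 CPM in them and 7.91 to 11.5 CPM elsewhere. H2-Eb2 was low, 0.345 to 10.4 CPM, and had the largest antibody effect of the list, 2.10 ± 0.55 (adjusted p = 0.732). Unlike the 8 genes, H2-Eb2 was highest in combination tumour 2, at 10.4 CPM against 6.28 CPM in combination tumour 3. It was 77.5% identical to H2-Eb1 over 1605 aligned transcript bases.

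Ctss, the cathepsin that trims the invariant chain, was at 236 to 638 CPM with an antibody effect of 0.56 ± 0.22 (adjusted p = 0.732). It was 591 and 638 CPM in anti-PD1 tumour 3 and combination tumour 3 and 236 to 340 CPM elsewhere. On the T cell side, Cd4, the coreceptor for class II, was at 12.3 to 84.0 CPM and Lag3, an inhibitory receptor that also binds class II, at 13.4 to 49.6 CPM. Their antibody effects were 0.69 ± 0.46 and 0.79 ± 0.33 with all 12 tumours, and neither passed. Both genes were highest in anti-PD1 tumour 3 and combination tumour 3. Cd4 was 62.2 and 84.0 CPM in them and 12.3 to 34.5 CPM elsewhere, and Lag3 46.5 and 49.6 CPM against 13.4 to 22.1 CPM.

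**Figure D5:**
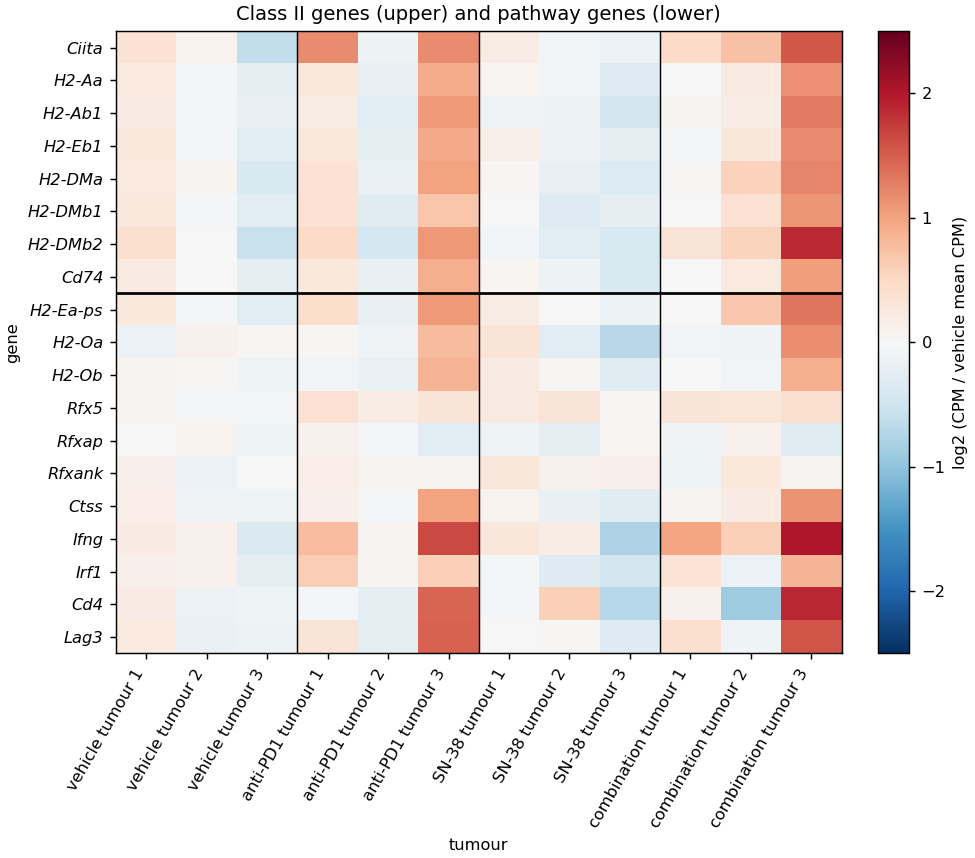
Log2 ratio of CPM to the vehicle mean for the 8 genes (upper block) and 11 pathway genes (lower block) in each of 12 tumours, where red is above and blue below the vehicle mean. Anti-PD1 tumour 3 and combination tumour 3 are red for all 8 genes, anti-PD1 tumour 1 is strongest for Ciita and Ifng, and Rfxap and Rfxank stay near 0.

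The genes most like Ciita over the 12 tumours, by Pearson's r of log2 CPM among the 12963 genes whose mean log2 CPM reached 1, were Gbp4 (0.970), Gm4070 (0.969), Batf2 (0.962), Tnfsf10 (0.962) and 9130208D14Rik (0.961). Without anti-PD1 tumour 3 and combination tumour 3 these stood at 0.932 to 0.953. Gbp4 is an interferon-induced GTPase and Batf2 an interferon-induced transcription factor, and Gbp4 also belongs to the interferon-gamma response list used above. Against the mean log2 CPM of the 8 genes, the highest were Slamf6 (0.978), H2-Ea-ps (0.977), Bcl2l14 (0.975), Il2ra (0.975) and Ppp1r16b (0.972), which stood at 0.891 to 0.947 without those tumours. Slamf6 and Il2ra encode receptors of activated lymphocytes. No gene of the set itself was eligible for these lists. Nlrc5 is the coactivator of MHC class I genes, a relative of CIITA and also a member of the interferon-gamma response list. It was looked up after its values were seen. Its r with Ciita was 0.939, and 0.925 without the 2 tumours, at 237 to 509 CPM. These correlations are descriptions over tumours that share treatments, and no p is attached to them.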

How the data were processed

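Per the labels' protocols, RNA came from a column kit and libraries from a stranded mRNA kit. The submitters' processing notes name cutadapt 2.4, STAR 2.7.2a and GRCm38. For the counter, its strand setting and the annotation, nothing is stated in the sources used here. The authors deposited whole-number counts per Ensembl identifier, not normalized, and 54409 of 54446 identifiers matched GENCODE M21.

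Genes were filtered with filterByExpr, which left 16833, and scaled with TMM factors of 0.970 to 1.03. Groups were compared by the quasi-likelihood test of edgeR 4.0.16 in R 4.3.3, fitting a mean per group over all 12 tumours, with p-values adjusted by Benjamini and Hochberg over all genes tested. It was tested on simulated data. Log2 CPM used a prior count of 2. DESeq2 1.42.0 and limma voom (limma 3.58.1) were alternatives, beside other scaling, filters and samples. In a chi-square test of counts, no 2 tumours of a group agreed within counting noise. The members, gene lists and tests were chosen with earlier results of these data known. Named genes were the members, pathway and marker lists, and the 5 most alike by r. Promoters came from RefSeq on GRCm38.p6.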

Additional observations from a re-analysis of the deposited data

How the results depend on the processing

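No alternative brought any of the 8 genes past an adjusted p of 0.05 in any comparison. The lowest adjusted p over all alternatives was 0.108, with DESeq2 for the antibody effect. Calls over all genes depended on the tool: DESeq2 called 28 genes for anti-PD1 against vehicle, 150 for SN-38 against vehicle, 173 for the combination against vehicle, 77 against anti-PD1 and 51 against SN-38, 5 for the antibody effect, 190 for the SN-38 effect, 16 for the interaction and 296 for any difference, where edgeR called 1 gene, in SN-38 against vehicle. Without a filter on low counts edgeR called 1 gene for the combination against anti-PD1 and 3 for the SN-38 effect. Without combination tumour 3 it called 1 gene for the combination against anti-PD1, and without combination tumour 1 or 2 it called 2 for the SN-38 effect. An arm with 2 tumours is assumed to vary like the other groups.

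Every log2 difference of the 8 genes kept its sign under every alternative for the combination against vehicle, the combination against SN-38 and the antibody effect. Elsewhere signs turned when tumours were left out 1 at a time. For anti-PD1 against vehicle H2-Ab1 ran from -0.019 to 0.68, with -0.020 without anti-PD1 tumour 3 and combination tumour 3 together. For SN-38 against vehicle H2-Aa ran from -0.22 to 0.026, H2-Eb1 from -0.18 to 0.086 and H2-DMb2 from -0.45 to 0.0071. Ciita, at 0.00 in the main fit, had no sign to turn there, so its range is not listed. Over all alternatives the highest difference of the 8 genes in that comparison was 0.22. For the combination against anti-PD1 all 8 turned, with combination tumour 3 left out for the low end: Ciita ran from -0.25 to 0.33 (-0.054 without both tumours named above), H2-Aa from -0.29 to 0.48, H2-Ab1 from -0.30 to 0.63, H2-Eb1 from -0.29 to 0.51, H2-DMa from -0.15 to 0.56, H2-DMb1 from -0.092 to 0.50, H2-DMb2 from -0.061 to 0.98 and Cd74 from -0.27 to 0.43. For the SN-38 effect Ciita ran from -0.13 to 0.18, H2-Aa from -0.20 to 0.19 and H2-DMb1 from -0.13 to 0.16 (-0.027, -0.019 and -0.013 without both), H2-Ab1 from -0.26 to 0.21, H2-Eb1 from -0.18 to 0.23, H2-DMa from -0.16 to 0.20, H2-DMb2 from -0.15 to 0.37 and Cd74 from -0.21 to 0.15. For the interaction Ciita ran from -0.25 to 0.36 (-0.053 without both), H2-Aa from -0.18 to 0.59, H2-Ab1 from -0.088 to 0.85, H2-Eb1 from -0.23 to 0.57 and Cd74 from -0.13 to 0.57. The cause was not tested. Relations with marker list scores past the threshold numbered 27 of 56 with group means removed and 17 over 10 tumours, against 41. Leaving out both tumours together was chosen after seeing the data.

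With the replicate number as a replicate block, 0 of the 8 genes were called in any comparison and the median antibody effect was 0.51. Deviations of same-numbered tumours from their group means correlated at -0.47 to 0.63 over 18 pairs, and 4 of 12 tumours correlated best with their own number. The labels do not say whether equal numbers pair the tumours, and beyond these values pairing was not tested. With 3 tumours per group, SEs of 0.21 to 0.63 limit what could be detected, not the depth, which was at least 511 counts per gene and tumour.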
